A study of Homo sapiens with 6 samples.

Results

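The transcription factor p53 is kept in check by a small group of regulators, several of which are its own target genes. The 8 genes described here are 3 of these regulators (MDM2, MDM4 and PPM1D) and 5 targets (GADD45A, SESN1, ZMAT3, RRM2B and TP53I3). They were taken by symbol from a table of 26391 genes, each had 1 row at 1 genome position, and all 8 passed the filter on low values that left 16245 genes. Their mRNA was read by sequencing of poly-A RNA from HEK293T, an established line of human embryonic kidney cells into which SV40 large T antigen was introduced. All groups share that background. One group of 3 libraries came from cells given a pool of 4 siRNAs against LOC550643, and the other 3 from cells given a non-targeting siRNA, here called the control. Both were transfected with Dharmafect I at 50% confluency and lysed 48 hours later. The study asked whether steady-state mRNA levels differ when LOC550643, whose product binds the decapping scaffold EDC4, is silenced. One pool was set against one control siRNA, so loss of LOC550643 and other effects of either reagent cannot be told apart.

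In resting cells the ubiquitin ligase MDM2 marks p53 for destruction, and its relative MDM4 covers the part of p53 that activates transcription. After DNA damage, kinases loosen this grip and p53 switches on genes for cell cycle arrest, repair and death, together with MDM2 and PPM1D, which shut the response down again. Large T antigen binds p53 and is known to block its work as an activator, so HEK293T cells hold much p53 protein with little of its usual output. The levels below are of mRNA and carry no measure of p53 protein or of its activity.

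p53 binds a pair of 10-base motifs that make up the p53 response element, and a window of 2500 bases on either side of each listed transcription start was searched for it in GRCh37. A match was a 20-base stretch with no spacer, at least 18 positions fitting the p53 consensus, and the central C and G of both motifs intact, and the consensus reads the same on both strands. Of the 8 genes, 4 had such a stretch, each once and each in an intron of the GENCODE annotation, against 3.6% of 15996 tested genes with windows of the same length. Of these, 3 are shown, since such elements are the sequences through which p53 is known to reach its targets, and that of RRM2B is not printed. The 4 central bases of each 10-base motif are in capitals, with 5 bases of flank on each side, on the strand of the gene.
MDM2: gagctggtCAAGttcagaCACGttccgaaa
GADD45A: gtacagaaCATGtctaagCATGctggggac
ZMAT3: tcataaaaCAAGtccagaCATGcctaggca
The MDM2 stretch (chr12:69202703-69202722, plus strand) fits at 18 of 20 positions and is centred 760 bases after the start. The GADD45A stretch (chr1:68152458-68152477, plus strand) fits at 19 and lies 1607 bases after the start. The ZMAT3 stretch (chr3:178787976-178787995, minus strand) fits at all 20 and lies 1670 bases after the start. RRM2B has a stretch that fits at 19, 2268 bases after its start. At 19 or more fitting positions the share of tested genes was 0.5%. No match in a window says only that these letters are not in it, and a match is not evidence that p53 was bound in these cells.

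The libraries held 8604236 to 36082404 read pairs assigned to genes, the lowest being LOC550643 siRNA replicate 3. LOC550643 itself, listed as LINC01420, stood at 50.7 to 56.2 CPM (counts per 1000000 of the scaled library total) in the control libraries and at 5.41 to 5.96 CPM after its siRNA. All 7 markers of the HEK293 line were present (VIM, KRT8, KRT18, PAX2, NEFL, NEFM and CDH2, summed level 1120 to 1240 CPM in control and 1240 to 1360 CPM in LOC550643 siRNA libraries). Of 7 fibroblast markers 2 averaged at least 1 CPM (sum 70.0 to 78.2 CPM in control and 68.0 to 73.2 CPM after LOC550643 siRNA, mostly COL1A1), with THY1 at 0 in all libraries. The 5 leukocyte markers summed to 2.25 to 3.29 CPM in control and 1.95 to 2.44 CPM after LOC550643 siRNA, and the 3 endothelial markers to at most 0.136 CPM in any library. Of 4 markers of liver and kidney, none averaged 1 CPM (sums 1.10 to 1.27 and 0.522 to 0.754 CPM). Control replicate 2 differed most from the other control libraries. The labels do not tell whether replicates came from separate cultures, and the p-values below then reflect only the spread among these libraries, which could be technical.

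After LOC550643 siRNA the p53 genes did not move one way. GADD45A and PPM1D were higher, MDM2 and TP53I3 were lower, and MDM4, SESN1, ZMAT3 and RRM2B did not pass the test. All 8 differed by less than 1.5-fold between the groups. The test thus called 4 of the 8, in a comparison where 35.7% of all genes tested were called (limma, adjusted p under 0.05), 17.5% as higher and 18.2% as lower (49.0% of calls higher, or 34.3% when libraries were scaled by their totals), so the share is not far above the background. The ranges of the 2 groups did not overlap for 6 of the 8, against 48.5% of the genes tested. Of the 8, 4 have in the authors' deposited table an adjusted p under 0.05, against 19.8% of all its 26391 rows. Those rows include 4787 at 0 in all libraries and others below the filter that the 8 passed, so the shares are not like for like. Of the 8, 0 reach the log2 fold change of 1 that the authors also asked for, per the labels. The median log2 fold change of the 8 was -0.21, beside -0.02 for all genes tested. Each fold change divides LOC550643 siRNA by control siRNA and was computed on log2(value + 1 deposited unit), and the 95% intervals given with them are not adjusted for the number of genes. In bulk RNA, fewer cells with an mRNA and less of it per cell cannot be told apart.

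**Figure D1:**
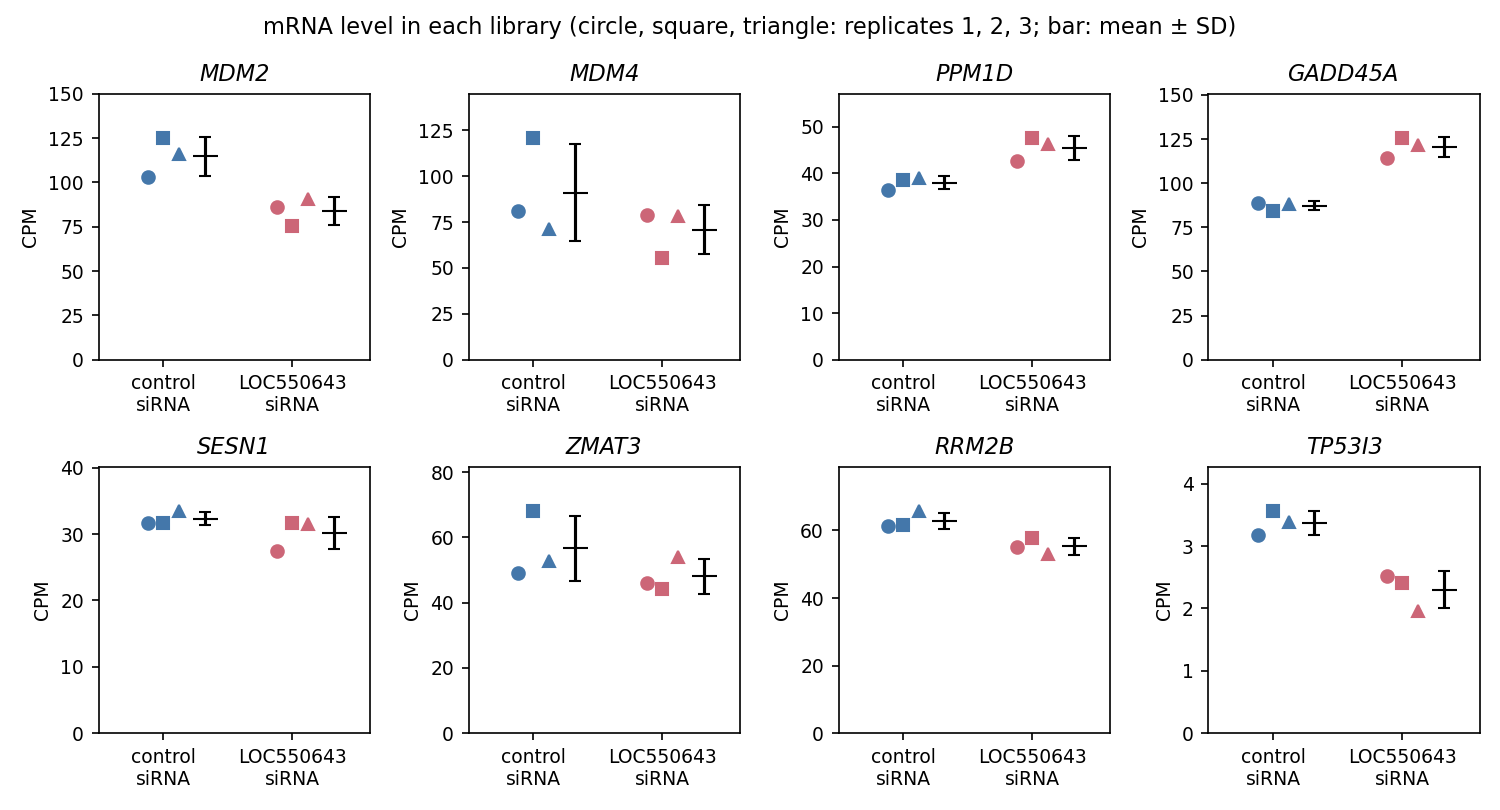
Level of each gene in CPM (linear axis from 0) in the 3 control and 3 LOC550643 siRNA libraries; symbols give the replicate number and bars the mean ± SD. The LOC550643 siRNA libraries all lie above the control libraries for GADD45A and PPM1D and below them for MDM2, RRM2B and TP53I3. For SESN1 they also lie below, but the groups all but meet (31.63 and 31.72 CPM). Control replicate 2 stands apart for MDM4 and ZMAT3.

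MDM2, the ubiquitin ligase that limits p53 and is one of its best known targets, was lower. The control libraries, replicates 1 to 3, stood at 103.1, 125.2 and 116.2 CPM. The LOC550643 siRNA libraries stood at 86.2, 75.2 and 90.5 CPM. The groups were apart, with the lowest control library above the highest LOC550643 siRNA library. The mean fell from 114.8 ± 11.1 to 84.0 ± 7.89 CPM (SD, n = 3 each), a ratio of 0.731. On the log2 scale the difference was -0.45 (SE 0.092, 95% interval -0.65 to -0.25, limma adjusted p = 0.00293). For MDM2 the authors' deposited table holds -0.46 and 0.000153. The call held in all 20 other analyses. MDM2 occupies chr12:69201952-69239324 (hg19, plus strand), and no other row of the table overlaps it or any of the other 7 genes.

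MDM4, the relative of MDM2 that blocks p53 without destroying it by itself, varied more between replicates than any other of the 8 genes. Control replicates 1 to 3 stood at 81.0, 120.9 and 71.0 CPM, and LOC550643 siRNA replicates at 78.9, 55.4 and 78.3 CPM. The groups overlapped, and control replicate 2 was the highest and LOC550643 siRNA replicate 2 the lowest of the 6. The means were 91.0 ± 26.4 and 70.9 ± 13.4 CPM (SD, n = 3 each), a log2 fold change of -0.34 (SE 0.181, 95% interval -0.74 to 0.06, limma adjusted p = 0.165). Without control replicate 2 it was -0.13 (limma adjusted p = 0.51), and without LOC550643 siRNA replicate 2 it was -0.17 (0.515). MDM4 occupies chr1:204485507-204527248, plus strand.

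MDM2 and MDM4 work as a pair, so their levels were also set against each other within each library, per kilobase of exon. MDM2 stood at 1.71, 1.39 and 2.20 times MDM4 in control replicates 1 to 3 and at 1.47, 1.83 and 1.55 times in LOC550643 siRNA replicates 1 to 3. On this scale, which uses the listed exon length of each gene, MDM2 stood above MDM4 in all 6 libraries. The lengths of the transcripts present were not measured. The log2 ratio was 0.80 ± 0.33 in control and 0.69 ± 0.16 in LOC550643 siRNA libraries, and the ranges overlapped (two-sided exact permutation p = 0.7, where 3 against 3 libraries cannot go below 0.1).

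PPM1D, a phosphatase (also called WIP1) that removes activating phosphates from p53 and from the kinases upstream of it, was higher. Control replicates stood at 36.5, 38.5 and 39.1 CPM and LOC550643 siRNA replicates at 42.5, 47.6 and 46.3 CPM. The groups did not overlap. The mean rose from 38.0 ± 1.35 to 45.5 ± 2.63 CPM (SD, n = 3 each; log2 0.26, SE 0.075, 95% interval 0.09 to 0.42, limma adjusted p = 0.0200). This call was narrow. In the authors' deposited table PPM1D has log2 0.25 and an adjusted p of 0.0499. The call was lost with library totals in place of TMM scaling (limma adjusted p = 0.0701) and without control replicate 1 (0.0822), LOC550643 siRNA replicate 2 (0.0813) or LOC550643 siRNA replicate 3 (0.0562). PPM1D occupies chr17:58677544-58743640, plus strand. MDM2 and PPM1D, both known as p53 targets that feed back on it, differed in direction.

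GADD45A, a small protein induced by growth arrest and DNA damage and known to be driven by stress factors besides p53, had the smallest p of the 8. It stood at 88.8, 84.4 and 88.4 CPM in control replicates and at 114.2, 125.7 and 121.4 CPM in LOC550643 siRNA replicates. Every LOC550643 siRNA library was above every control library, and the replicates of each group lay close together. The mean rose from 87.2 ± 2.46 to 120.4 ± 5.82 CPM (SD, n = 3 each), a ratio of 1.38. On the log2 scale this was 0.46 (SE 0.068, 95% interval 0.32 to 0.61, limma adjusted p = 0.000371). The value for GADD45A in the authors' deposited table is 0.46 as well, at an adjusted p of 7.16e-06. The call held in all 20 other analyses, with log2 fold changes of 0.39 to 0.50. GADD45A occupies chr1:68150860-68154021, plus strand.

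TP53I3, a quinone oxidoreductase (PIG3) linked to oxidative stress in p53-driven death, was the least abundant of the 8 and was lower. Control replicates stood at 3.17, 3.56 and 3.38 CPM and LOC550643 siRNA replicates at 2.52, 2.41 and 1.96 CPM. The groups did not overlap, and the lowest value came from the shallowest library, where it rests on 16.5 read pairs (a fraction arises where only one end of a pair was counted). The mean fell from 3.37 ± 0.193 to 2.30 ± 0.296 CPM (SD, n = 3 each; log2 -0.55, SE 0.158, 95% interval -0.90 to -0.21, limma adjusted p = 0.0184). TP53I3 is at -0.49 in the authors' deposited table (adjusted p 0.0194). Without control replicate 3 the adjusted p was 0.0537. TP53I3 occupies chr2:24300303-24308085, minus strand.

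RRM2B, the p53-inducible small subunit of ribonucleotide reductase that supplies deoxynucleotides for repair, lay just outside the threshold. Control replicates stood at 61.2, 61.6 and 65.6 CPM and LOC550643 siRNA replicates at 55.0, 57.9 and 52.9 CPM. The groups did not overlap. The means were 62.8 ± 2.44 and 55.3 ± 2.47 CPM (SD, n = 3 each; log2 -0.19, SE 0.070, 95% interval -0.34 to -0.03, limma adjusted p = 0.0598). It passed in 6 of the 20 other analyses, among them library totals (log2 -0.26, adjusted p = 0.0112) and the fit without control replicate 2 (-0.21, adjusted p = 0.0492), while its adjusted p in the authors' deposited table is 0.175. RRM2B occupies chr8:103216729-103251346, minus strand.

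ZMAT3, a zinc finger protein (WIG1) that binds RNA and is induced by p53, did not pass. It stood at 49.0, 67.9 and 52.9 CPM in control replicates and at 46.0, 44.1 and 54.0 CPM in LOC550643 siRNA replicates. The groups overlapped, and control replicate 2 was again the highest library. The means were 56.6 ± 10.0 and 48.0 ± 5.26 CPM (SD, n = 3 each; log2 -0.23, SE 0.119, 95% interval -0.49 to 0.03, limma adjusted p = 0.157). Without control replicate 2 the log2 fold change was -0.10 (limma adjusted p = 0.46). ZMAT3 occupies chr3:178735011-178789656, minus strand.

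SESN1, a sestrin that restrains the growth kinase mTORC1 when p53 is active, was the nearest to no change. It stood at 31.7, 31.8 and 33.4 CPM in control replicates and at 27.4, 31.6 and 31.6 CPM in LOC550643 siRNA replicates. The groups did not overlap, but the lowest control library (31.72 CPM) and the highest LOC550643 siRNA library (31.63 CPM) all but met, and only LOC550643 siRNA replicate 1 stood clearly lower. The log2 fold change was -0.10 (SE 0.083, 95% interval -0.28 to 0.08, limma adjusted p = 0.374), and -0.03 without LOC550643 siRNA replicate 1. SESN1 occupies chr6:109307640-109415708, minus strand.

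**Figure D2:**
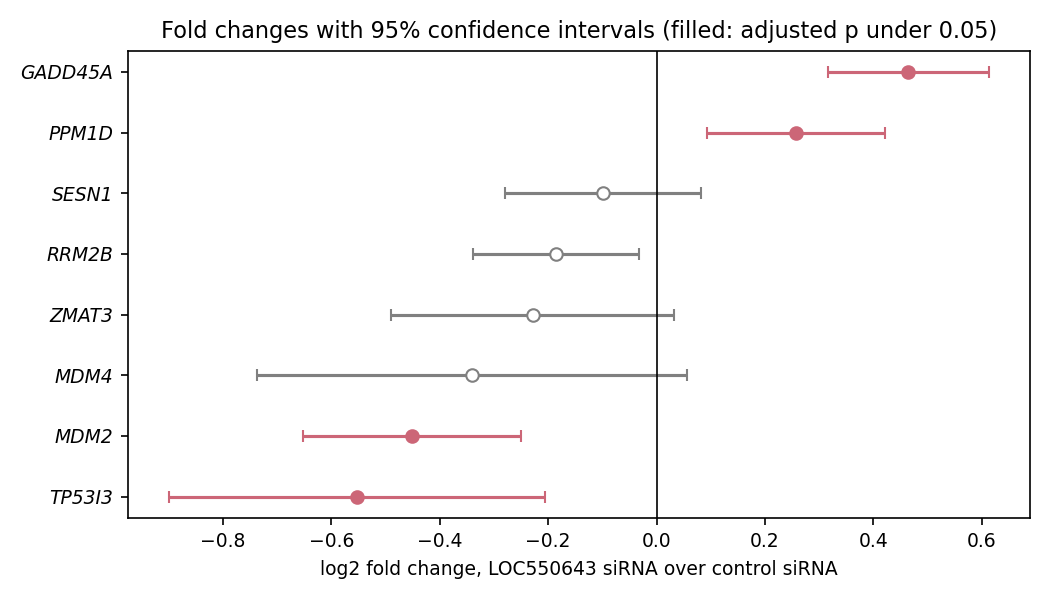
Log2 fold change of each gene, LOC550643 siRNA over control siRNA, with its unadjusted 95% confidence interval; filled points passed an adjusted p of 0.05 (limma). The points run from -0.55 for TP53I3 to 0.46 for GADD45A, and MDM4 has the widest interval.

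Levels can be compared between genes only per length, and on the scale of CPM per kilobase of exon GADD45A led. Its mean was 63.5 ± 1.79 CPM per kilobase in the control libraries (SD, n = 3). By its mean over all 6 libraries it stood at the 94th percentile of genes tested. MDM2 (15.3 ± 1.48), RRM2B (12.8 ± 0.496) and SESN1 (10.1 ± 0.309) followed, each with a control range clear of the gene before it. SESN1 and MDM4 (9.04 ± 2.62), and MDM4 and PPM1D (7.97 ± 0.284), could not be put in order, since their control ranges overlapped, and that of MDM4 also reached the range of ZMAT3. ZMAT3 (6.22 ± 1.10) and TP53I3 (1.66 ± 0.0952) were lowest. In the LOC550643 siRNA libraries MDM2 and RRM2B had overlapping ranges at a mean of 11.2 CPM per kilobase each. There PPM1D (9.54) and SESN1 (9.49) overlapped, and every PPM1D value stood above every MDM4 value (mean 7.04).

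The 3 genes on which control replicate 2 was highest by most, MDM4, ZMAT3 and MDM2, are also those with the longest exon lengths, at 10064, 9104 and 7482 bases. Relative to the mean of the other control libraries, control replicate 2 was higher by log2 0.67 for MDM4, 0.42 for ZMAT3 and 0.19 for MDM2. Tested genes were split into 5 classes by exon length. In the longest class (3248 genes of 4999 bases and over) the median of the same difference was 0.19, and in the shortest -0.11. LOC550643 siRNA replicate 2 differed from the mean of the others of its group by log2 -0.505 for MDM4, -0.232 for MDM2 and -0.178 for ZMAT3. The median of the longest class in that library was -0.063. What sets these replicates apart was not tested. The median log2 fold change in the longest class was -0.07. The trend with exon length was therefore removed from each library in an analysis added after the data were seen. MDM2 then stood at log2 -0.37 (limma adjusted p = 0.000418), so its call remained, while MDM4 stood at -0.19 (0.0634) and ZMAT3 at -0.10 (0.255). RRM2B passed in that fit (-0.18, limma adjusted p = 0.0342), though its fold change did not grow. More genes passed there in general, 3628 higher and 3337 lower against 2837 and 2956 in the main fit.

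**Figure D3:**
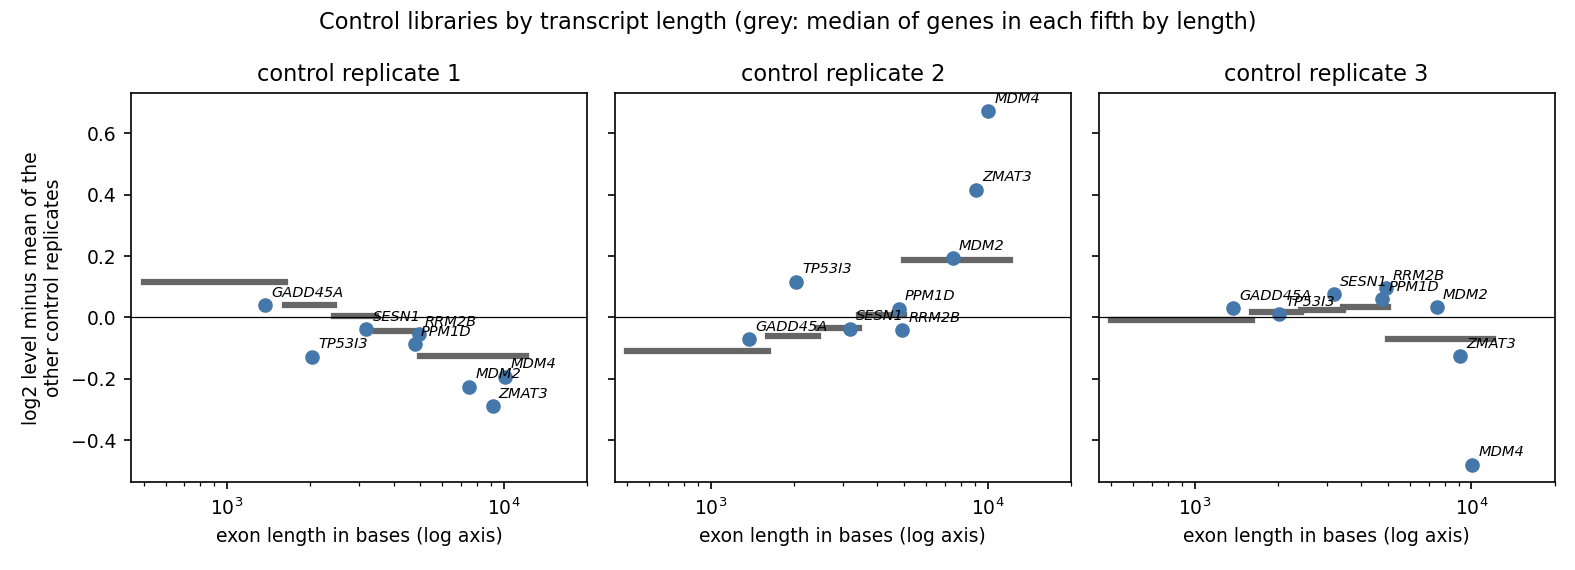
Difference of each control library from the mean of the other control libraries (log2) against exon length (log axis) for the 8 genes (points), with the median of all tested genes in each of 5 length classes (grey bars, clipped at the ends of the axis although the end classes reach further). In control replicate 2 MDM4 (0.67) and ZMAT3 (0.42) lie above the median of long genes (0.19).

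The LOC550643 product binds a factor of mRNA decay, and mRNAs with AU-rich 3′ ends are a known class of decay substrates, so the letters ATTTA were counted in the annotated 3′ untranslated region (UTR) of each gene's canonical GENCODE transcript, on the sense strand and with overlapping matches allowed. MDM2 held 23 in 5695 bases, RRM2B 22 in 3631, MDM4 19 in 8438, ZMAT3 14 in 7794 and SESN1 9 in 3235. PPM1D held 5 in 2728, GADD45A 2 in 560 and TP53I3 0 in 146. Among 13389 tested genes with such a region, the median was 2 in 1326 bases and 72.4% held at least 1. Per kilobase, RRM2B (6.06) and MDM2 (4.04) were highest and the median gene stood at 1.65. The genes that passed the test were spread over this range, with GADD45A (3.57 per kilobase, from only 2 matches) higher and MDM2 lower. Whether these counts go with the fold changes was not tested.

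The genes whose log2 values followed MDM2 most closely over the 6 libraries were VSIG10 (Pearson r 0.999), LMBR1 (0.993) and CELF2 (0.993), of 14716 genes with a mean of at least 1 CPM. For MDM4 they were VCAN (0.998), SLC18A2 (0.997) and CEP350 (0.996), all highest in control replicate 2 and lowest in LOC550643 siRNA replicate 2. These are descriptions of 6 libraries that fall into 2 groups, without a test.

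Other genes of the pathway were counted on lists of regulators and targets. Of 35 tested regulators of p53, 6 were higher and 7 lower (37.1% called, close to the 35.7% of all genes tested; median log2 -0.11), and the number lower ran from 4 to 12 over the other analyses. USP2, a deubiquitinase that stabilises MDM2, fell from 36.7 ± 0.589 to 21.5 ± 0.397 CPM (SD, n = 3 each; log2 -0.77, limma adjusted p = 2.54e-05). The methyltransferases SMYD2 (log2 -0.68) and SETD8 (-0.48), which modify lysines of p53, and the acetyltransferase KAT5 (-0.35) fell as well. PPP1R13L, the inhibitory member of the ASPP family, stood at 36.4 ± 1.29 CPM and rose to 49.5 ± 3.02 CPM (log2 0.44, limma adjusted p = 0.00107). BRD7, a bromodomain cofactor of p53 (0.40), USP4 (0.36) and OTUD5 (0.30), both deubiquitinases, also rose. KAT5 overlaps RNASEH2C and PPP1R13L overlaps CD3EAP on the opposite strand, and strand was not used in counting as far as the file header shows.

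Targets of p53 beyond the 8 went in both directions. Over 4 lists with 87 genes tested, 14 were higher, 25 lower and 48 did not pass (44.8% called, 16.1% higher and 28.7% lower, beside 35.7%, 17.5% and 18.2% of all genes tested; median log2 -0.04). That difference in share was not tested. Of 20 tested arrest and stress targets 2 were higher (1 to 5 over the other analyses) and 6 lower (40.0% called, beside 35.7% of all genes tested). In this list 10% were higher and 30% lower, beside the 17.5% and 18.2% of all genes tested. SESN2, a sestrin that also answers amino acid and ER stress, stood at 210.8 ± 17.2 CPM in control and rose to 287.6 ± 19.7 CPM (SD, n = 3 each; log2 0.45, limma adjusted p = 0.00152). GDF15, a secreted stress cytokine, rose by log2 0.64 (limma adjusted p = 0.0310), a call lost in 6 of the 20 other analyses (log2 0.39 and adjusted p = 0.107 without LOC550643 siRNA replicate 1). SERTAD1 (-0.83), PANK1 (-0.65), TP53INP1 (-0.48) and SPATA18 (-0.46) fell.

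Of 19 tested death targets 3 were higher and 6 lower (47.4% called, beside 35.7% of all genes tested, median log2 -0.01). As shares, 15.8% were higher and 31.6% lower, beside 17.5% and 18.2% of all genes tested, a difference that was not tested. The death receptor FAS was at 8.62, 6.49 and 7.95 CPM in control replicates and at 3.94, 4.35 and 3.69 CPM after LOC550643 siRNA (log2 -0.93, limma adjusted p = 0.000435); it overlaps ACTA2 and FAS-AS1 on the opposite strand. BAX, which opens the mitochondrial outer membrane, fell by log2 0.46, TP53I11 by 0.59 and the autophagy gene DRAM1 by 0.53. The other death receptor on the list that was called, TNFRSF10B, went the other way, from 166.4 ± 0.696 to 227.4 ± 8.56 CPM (log2 0.45, limma adjusted p = 0.00034), and overlaps RHOBTB2 and LOC286059 on the opposite strand. PERP, a desmosome protein of p53-driven death, rose by log2 0.61 and EI24 by 0.30. TP53I11 overlaps TSPAN18 and EI24 overlaps STT3A-AS1, also on the opposite strand.

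Of 10 tested repair and nucleotide targets 3 were higher and 0 lower (limma, 30.0% called, beside 35.7% of all genes tested, median log2 0.03). All of that share was higher, beside 17.5% of all genes tested, with 0% lower, beside 18.2%. This split, of only 10 genes, was not tested. In the same 6 libraries, 0 were lower at an unadjusted p under 0.05 or by edgeR and DESeq2. XPC, the damage sensor of nucleotide excision repair, was at 61.5, 61.7 and 66.4 CPM in control replicates and at 94.8, 111.4 and 101.6 CPM after LOC550643 siRNA, with no overlap (log2 0.70, limma adjusted p = 6.8e-05). ASCC3, a helicase of alkylation repair, rose by log2 0.33 (limma adjusted p = 0.0145), a call that did not hold without control replicate 1 (0.0661) or without LOC550643 siRNA replicate 3 (0.0528). Of 38 further targets 6 were higher (2 to 8 over the other analyses) and 13 lower (50.0% called, beside that 35.7%). Split by direction, 15.8% were higher and 34.2% lower, beside 17.5% and 18.2% of all genes tested, a difference that was not tested. The list median was log2 -0.06. TAP1 (log2 -1.25), whose row is listed at 8 positions, TRAF4 (-0.96), FUCA1 (-0.49) and the sodium channel subunit SCN3B (-1.82, from 6.42 to 1.81 CPM) fell. CES2 (0.44), PLCL2 (0.37), SAC3D1 (0.28) and TM7SF3 (0.22) rose; the call of SAC3D1 was lost without LOC550643 siRNA replicate 2 (0.0621), and that of TM7SF3 in 10 of the 20 other analyses.

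**Figure D4:**
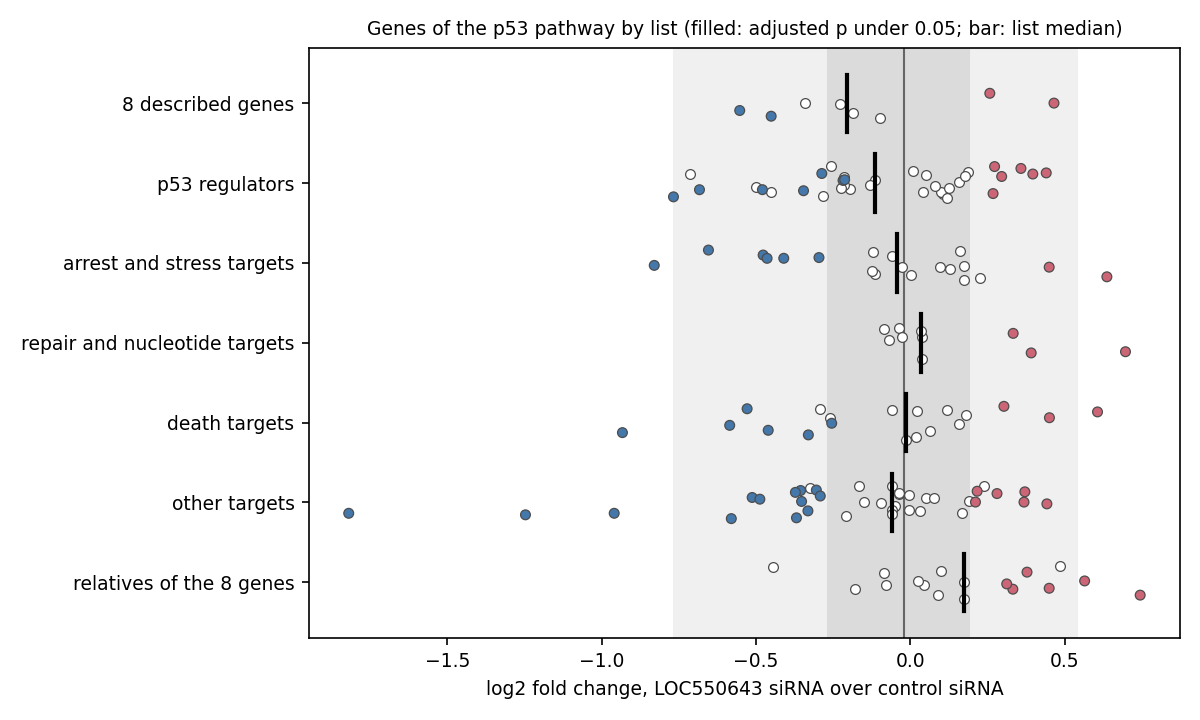
Log2 fold change (LOC550643 siRNA over control siRNA) of each tested gene on the lists of p53 regulators, targets and relatives of the 8 genes; filled points passed an adjusted p of 0.05 (red higher, blue lower), black bars are list medians, and grey bands hold the middle 50% and 90% of all genes tested. The medians of the 4 lists of targets run from -0.06 to 0.03, and SCN3B (-1.82) is the point furthest left. The list of relatives also holds RRM1, a partner subunit of RRM2B, and SESN2, which is shown among the arrest and stress targets as well.

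Close relatives of the 8 genes that p53 does not all control were set beside them. The list also holds RRM1, which is a partner subunit of RRM2B and not a relative. SESN2 is on it too, and was already counted among the arrest and stress targets. Of 17 tested, 6 were higher, 0 lower and 11 did not pass (limma, median log2 0.17). The share called, 35.3%, was close to the 35.7% of all genes tested, but it was split otherwise. On this list 35.3% were higher and 0% lower, beside 17.5% and 18.2% of all genes tested, a difference that was not tested. At an unadjusted p under 0.05, or by edgeR and DESeq2, 0 were lower. RRM2, the S-phase small subunit of ribonucleotide reductase, rose from 131.9 ± 3.03 to 221.5 ± 20.1 CPM (SD, n = 3 each; log2 0.74, limma adjusted p = 4.36e-05), where its p53-inducible counterpart RRM2B was at -0.19. Their shared large subunit RRM1 rose by 0.31 (limma adjusted p = 0.00789). SESN2 rose by 0.45, where SESN1 was at -0.10 and SESN3 at 0.17 (limma adjusted p = 0.454); the differences between relatives were not tested. GADD45B stood at 13.2 ± 1.76 CPM and rose to 19.6 ± 2.83 CPM (log2 0.56, limma adjusted p = 0.00514), the same direction as GADD45A. PPM1F (0.38) and PPM1H (0.33), phosphatases of the family of PPM1D, rose, while PPM1A, PPM1B, PPM1G and PPM1K did not pass (log2 -0.08 to 0.10). GADD45B and RRM1 were chosen for naming after their values were seen.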

How the data were processed

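The authors sequenced dUTP poly-A libraries with paired 75 base reads and aligned them to hg19 with STAR 2.4.0k, per the labels' protocols; HOMER counted exons per the file headers, without a strand option, and edgeR 3.6.8 gave their comparison. The deposited per-library values are a signal: counts scaled by the authors so that all libraries have nearly the same total. They are whole multiples of 1 step per library (100% of values within 0.1 step), taken as 1 read end. Values of the deposited comparison (log2 fold change, adjusted p-value) are quoted as the authors' own. Genes were kept by edgeR 4.0.16's filter (10 read pairs), scaled by TMM on recovered pairs, and tested with limma 3.58.1 (mean trend, two-sided) on log2(value + 1 unit, 0.034 CPM), with Benjamini-Hochberg adjustment over 16245 genes. The added unit makes fold changes of low genes smaller, but other steps of the fit also move them. TP53I3, the lowest of the 8, was at log2 -0.55 here, and at -0.49 with limma and voom, -0.52 with edgeR and -0.51 with DESeq2. CPM are values over the scaled library total. For a count of 0 the limit of 3 pairs is 0.0812 to 0.357 CPM, for counting error only. DESeq2 1.42.0 and edgeR served as alternatives on recovered reads. On simulated data (16155 genes) the test recovered 70.1% of 1.5-fold and 95.5% of 2-fold changes, and 5.9% of calls were false. The simulation gave every gene the same dispersion, changed only a small part of the genes and held no trend with exon length. These data differ on each point, so the simulated shares cannot be taken as those of the calls made here. Smaller changes, the size of those of the 8 genes, were not simulated. UTRs and exons come from GENCODE release 44 on GRCh37 (Python 3.11.15, R 4.3.3). The 8 genes and the lists were chosen with earlier results of these data known. Named are the 8, up to 4 called genes with the smallest p per direction of each list, and the 3 most correlated genes for MDM2 and MDM4; a few genes under this rule are not reported here.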

Additional observations from a re-analysis of the deposited data

How the results depend on the processing

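In 20 other analyses (18 chosen with the design, 2 added after seeing the data) no direction of the 8 genes reversed. MDM2, GADD45A, MDM4, SESN1 and ZMAT3 stayed on the same side of the threshold in all 20. RRM2B passed with upper-quartile scaling (log2 -0.214), library totals (-0.261), a filter at a mean of 1 CPM (-0.193), the exon length trend removed (-0.180) and the same without control replicate 2 (-0.213); PPM1D did not pass with library totals (0.181). With 1 library left out, RRM2B ranged from -0.219 to -0.153, PPM1D from 0.223 to 0.305 and TP53I3 from -0.623 to -0.444. The number of lower regulators, 7, became 11 with library totals, 12 with the length trend removed, 11 when control replicate 2 was also left out, and 4 to 10 with 1 library left out (4 without LOC550643 siRNA replicate 3). The number of higher arrest and stress targets, 2, became 1 with library totals, 5 with the length trend removed, 4 without control replicate 2 as well, and 1 to 2 with 1 library left out (1 when any single control replicate or LOC550643 siRNA replicate 2 was left out). The number of higher genes among further targets, 6, became 3 with library totals or without a filter, and 2 to 5 with 1 library left out (3 without control replicate 1 or LOC550643 siRNA replicate 1, 2 without LOC550643 siRNA replicate 2). The causes were not tested. Library totals moved the share of higher genes among calls from 49.0% to 34.3% (median of all genes -0.10). The edgeR quasi-likelihood test called 2859 higher and 2992 lower. Same-numbered replicates did not deviate together (correlations 0.058, -0.283 and -0.12). Differently numbered ones spread as widely (-0.136 to 0.247), so these values cannot tell whether libraries were prepared in pairs. With the replicate block 2671 genes were higher and 2717 lower, and MDM2 stood at a limma adjusted p of 0.00906. No call of the 8 genes changed in that fit, and of the other named genes TM7SF3 lost its call (0.0594). Depth limits TP53I3 most, at 16.5 read pairs in the shallowest library.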
